A study of Mus musculus with 12 samples.

Results

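UDP-glucuronosyltransferases are membrane enzymes of the endoplasmic reticulum that join a sugar, usually glucuronic acid, to bilirubin, steroids, bile acids and drugs, which makes them soluble enough to leave in bile or urine. Expression of 10 of these genes was read in mouse liver, out of 21004 genes in the table. They were taken by symbol from a list drawn up with earlier results of these data known: Ugt1a1, Ugt1a6a, Ugt1a9, Ugt2a3, Ugt2b1, Ugt2b5, Ugt2b34, Ugt2b36, Ugt2b38 and Ugt3a1. The 12 libraries came from livers of ICR mice, an outbred strain, aged 8 weeks, and formed 4 groups of 3. One group was the control, one received busulfan, a DNA-crosslinking drug toxic to blood and germ stem cells, one received L.J. at 10 mg/kg, and one received busulfan together with L.J. at 10 mg/kg. The labels give neither a meaning for L.J. nor the sex of the mice, and no group carries a transgene or deletion. The design text places the study as a look at fecal transplant effects on a liver injured by busulfan, while no label names a transplant. Nothing states that the 3 replicates of a group are separate animals, so each p-value measures the spread between these libraries, which may be technical.

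Values are FPKM, mapped fragments scaled by transcript length and by library size, so that levels of different genes can be set side by side per length. The deposited table holds no counts, so depth is unknown and counting intervals cannot be given. FPKM summed to between 514647 and 665060 per library. Markers of hepatocytes were high throughout, with 9 of 10 listed markers in the table and a summed level of 29347 to 55600 FPKM. Libraries L.J. replicates 1 and 3 stood apart from the other 10: the 21 Mup genes, which encode the major urinary proteins that male mouse liver makes in bulk, took 1.36% and 0.0956% of all FPKM in them, against 11.7% to 36.7% in the others. Counts of genes that passed in comparisons with the L.J. group are therefore also given without those libraries, and without L.J. replicate 2.

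The family falls into subfamilies by locus. Enzymes of UGT1A come from 1 locus, in which each gene has a first exon and promoter of its own, and all splice to the same last exons. That first exon encodes the part of the protein that binds the substrate, and the shared exons encode the part that binds the sugar donor UDP-glucuronic acid. Enzymes of UGT2 are separate genes in a cluster made by duplication, and UGT3A enzymes use other sugars in place of glucuronic acid, as shown for human UGT3A1, which takes UDP-N-acetylglucosamine. In liver, the transcription factor HNF4A helps keep these genes active, and the receptors AhR, PXR, CAR and PPARA and the oxidant sensor NRF2 raise many of them. In rodents, growth hormone and sex steroids also set the level of several of them.

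The 250 bases before the RefSeq transcript start (GRCm38.p6, the build with the coordinates of mm10) are printed 5′ to 3′ on the gene's strand for 5 genes. Ugt2b5 and Ugt2b38 are shown because nearly alike upstream bases stand before genes of very unlike level, Ugt1a1 and Ugt1a9 because they share their last exons and their L.J. means lay on opposite sides of control, and Ugt3a1 because it lay farthest from control. Capitals mark the letters AGGTCA, a half-site of nuclear receptors, searched on both strands, which the windows of Ugt1a1 and Ugt3a1 do not hold. The windows are chr5:87140341-87140590 on the minus strand for Ugt2b5, chr5:87424204-87424453 on the minus strand for Ugt2b38, chr1:88211709-88211958 on the plus strand for Ugt1a1, chr1:88070529-88070778 on the plus strand for Ugt1a9 and chr15:9279579-9279828 on the plus strand for Ugt3a1. The last bases of the Ugt3a1 window lie inside the RefSeq span of that gene, which starts at 9279822.
Ugt2b5: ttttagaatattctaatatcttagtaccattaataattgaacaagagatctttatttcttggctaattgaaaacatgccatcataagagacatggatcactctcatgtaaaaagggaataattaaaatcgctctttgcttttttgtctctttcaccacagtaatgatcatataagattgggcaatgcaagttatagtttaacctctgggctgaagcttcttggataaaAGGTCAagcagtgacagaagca
Ugt2b38: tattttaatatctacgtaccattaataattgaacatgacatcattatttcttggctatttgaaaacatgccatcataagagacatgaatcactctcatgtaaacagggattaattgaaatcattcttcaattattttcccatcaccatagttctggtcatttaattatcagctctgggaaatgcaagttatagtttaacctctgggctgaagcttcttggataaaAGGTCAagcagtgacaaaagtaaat
Ugt1a1: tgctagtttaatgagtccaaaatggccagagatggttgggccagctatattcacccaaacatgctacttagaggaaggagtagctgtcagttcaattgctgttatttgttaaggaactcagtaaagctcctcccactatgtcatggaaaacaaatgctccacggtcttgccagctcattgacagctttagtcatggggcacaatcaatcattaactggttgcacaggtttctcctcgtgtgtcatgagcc
Ugt1a9: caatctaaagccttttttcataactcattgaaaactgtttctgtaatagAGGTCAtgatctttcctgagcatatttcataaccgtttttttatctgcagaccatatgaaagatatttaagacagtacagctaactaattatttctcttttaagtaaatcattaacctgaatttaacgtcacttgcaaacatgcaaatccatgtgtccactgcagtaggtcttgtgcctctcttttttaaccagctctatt
Ugt3a1: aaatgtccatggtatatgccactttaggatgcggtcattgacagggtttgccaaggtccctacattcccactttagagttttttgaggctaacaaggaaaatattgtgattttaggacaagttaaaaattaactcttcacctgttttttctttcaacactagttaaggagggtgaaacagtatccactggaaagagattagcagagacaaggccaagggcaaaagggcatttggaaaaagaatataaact

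Upstream windows of this length were found for all 10 genes. AGGTCA stood in 4 of the 10, against 13.84% of 27025 RefSeq promoters, and these were Ugt1a9, Ugt2b5, Ugt2b36 and Ugt2b38. In Ugt2b36 and Ugt2b38 it ran from 25 to 20 bases before the start, and in Ugt2b5 from 22 to 17. The letters GCGTG, the core bound by AhR, and TGACNNNGC, the core bound by NRF2, were searched on both strands too, were in none of the 10 windows, and stood in 28.21% and 10.15% of promoters. TTCNNNGAA, the STAT5 element, was in the window of Ugt1a6a alone and in 7.179% of promoters, and TATAAA was in that of Ugt3a1 alone and in 12.97%. The TATAAA match ran from 8 to 3 bases before the start used for that window, and overlaps the RefSeq span of Ugt3a1. These are matches of letters within 250 bases and say nothing of binding, and a window without a match says nothing of the factor.

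How far the genes can be told apart depends on shared sequence. Ugt1a1 (chr1:88211959-88220002), Ugt1a6a (chr1:88134809-88220002) and Ugt1a9 (chr1:88070779-88220002) end in the same 4 exons in GENCODE M21. Those exons hold 1311 bases, which is 58.9% of the Ugt1a1 transcript, 57.1% of Ugt1a6a and 59.9% of Ugt1a9. Reads in them cannot be assigned to 1 gene, and how the authors divided them is not given in the sources used here, so UGT1A values are uncertain in that part. The first exon, which is the part of its own, is 913 bases in Ugt1a1 and 879 in Ugt1a9. Every window of 100 bases of the Ugt1a6a transcript also occurs in a transcript listed under Ugt1a7c, a gene that read at most 0.44 FPKM in any library. Ugt2b5 (chr5:87124946-87140340) and Ugt2b38 (chr5:87409939-87424203) have transcripts that are 95.7% identical over aligned bases, and 24.7% of the 100-base windows of Ugt2b5 occur unchanged in Ugt2b38. Their upstream windows printed above are 88.3% identical over aligned bases. Ugt2b5 is less like Ugt2b36 (chr5:87065927-87092555), with 87.1% identity in transcript and 69.6% upstream. Ugt2b1 (chr5:86916639-86926503), Ugt2b36 and Ugt3a1 (chr15:9279822-9315038) share no 100-base window with another Ugt gene, while Ugt2a3 (chr5:87324972-87337195) shares 0.595% and Ugt2b34 (chr5:86889770-86906937) 0.407%. More is shared in windows of 50 bases, of which 8.88% of those of Ugt3a1 occur in Ugt3a2. Of such windows, 41.7% of Ugt2b5, 3.77% of Ugt2a3, 2.07% of Ugt2b34 and 0.326% of Ugt2b36 occur in another Ugt gene.

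In control libraries the UGT2B enzymes Ugt2b5, Ugt2b36 and Ugt2b1 were the most abundant members. Mean FPKM ± SD over 3 libraries was 518 ± 83.9 for Ugt2b5, rank 110 among all genes in the table, 408 ± 51.9 for Ugt2b36 and 329 ± 71.3 for Ugt2b1. The libraries of neighbours in this order overlapped, so Ugt2b5 could not be set above Ugt2b36, nor Ugt2b36 above Ugt2b1, beyond their spread. Ugt1a9 followed at 165 ± 15.3 FPKM, below every Ugt2b1 library. Ugt2b34 at 123 ± 15.5 and Ugt2a3 at 102 ± 11.3 overlapped each other, as did Ugt3a1 at 68.5 ± 17.3 and Ugt1a1, the enzyme that conjugates bilirubin, at 59.5 ± 11.2. Ugt1a6a, which conjugates small flat phenols, read 18.1 ± 1.75 FPKM, and Ugt2b38 was lowest at 3.35 ± 3.17, rank 7346. All 10 members passed the filter of at least 1 FPKM in at least 3 libraries, Ugt2b38 with 9 libraries at that level or above.

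**Figure D1:**
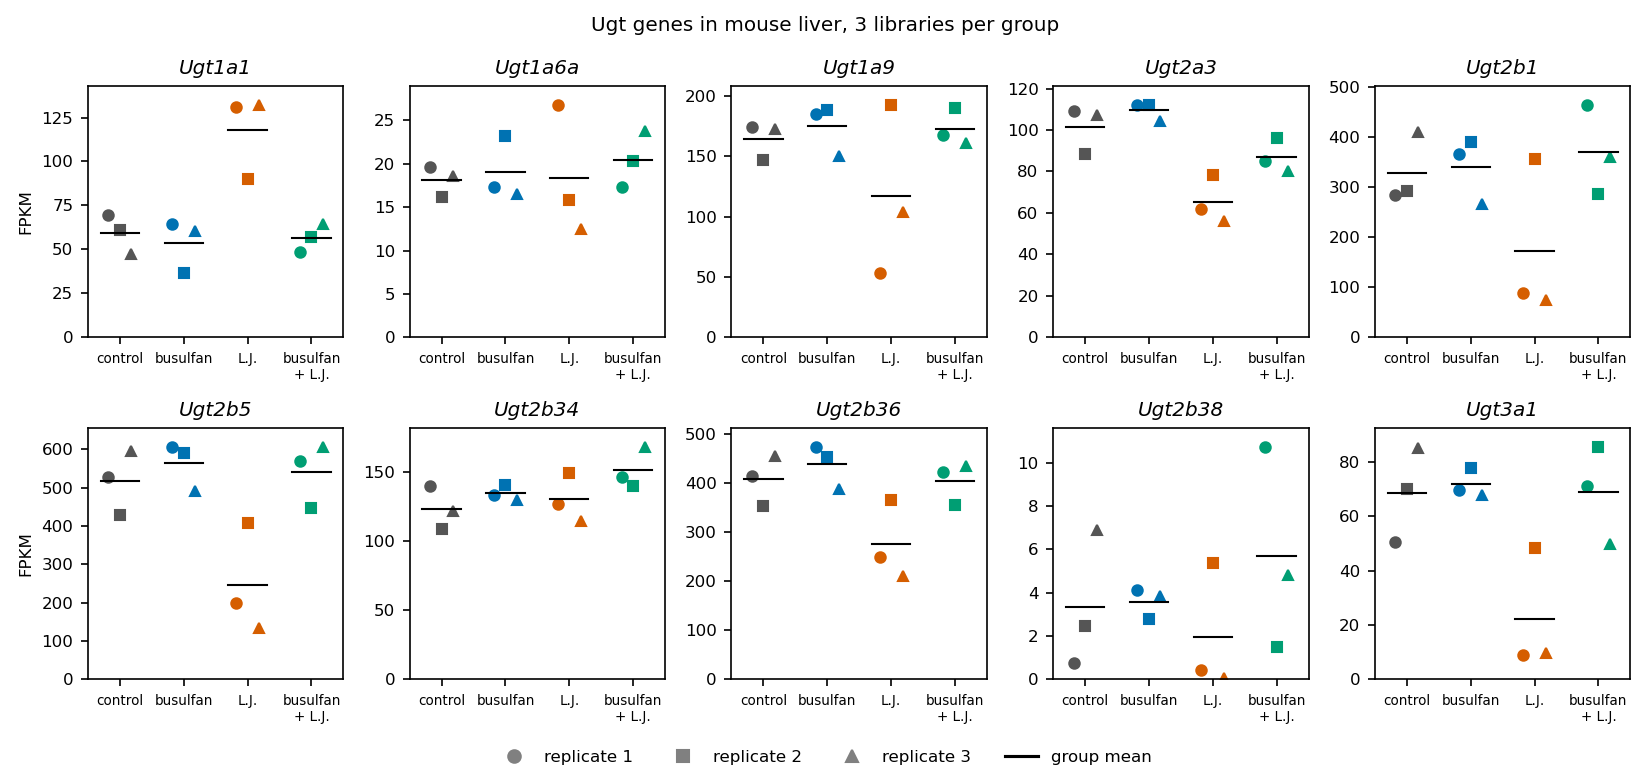
FPKM of each of the 10 genes in each library (vertical axes linear and starting at 0, 1 scale per gene), with 3 points per group and a bar at the group mean. L.J. replicates 1 and 3 lie under the other libraries for Ugt1a9, Ugt2a3, Ugt2b1, Ugt2b5, Ugt2b36, Ugt2b38 and Ugt3a1 and above them for Ugt1a1.

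The comparison of L.J. with control asks what L.J. does in a liver not given busulfan. No member passed in limma at an adjusted p of 0.05, where 27 of 10786 tested genes, or 0.250%, passed. At an unadjusted p under 0.05, limma gave 6 of 10 members, 5 lower and 1 higher, and 2505 of all tested genes. Fitted values were below control for 8 members and above it for 2, with a median log2 difference of -0.65 over members, while the median over all tested genes was 0.17 and 22.9% of them were below control. Groups did not overlap for Ugt2a3, Ugt2b5 and Ugt3a1, all lower, beside 2.87% of all genes that were lower without overlap, and for Ugt1a1, higher, beside 17.9% that were higher without overlap. In bulk tissue, fewer hepatocytes and less RNA per hepatocyte cannot be told apart.

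Among UGT1A members, Ugt1a1 read 69.7, 61.2 and 47.4 FPKM in control replicates 1, 2 and 3, and 131, 90.0 and 132 in those of L.J. It read 64.2, 36.6 and 60.3 FPKM with busulfan and 48.5, 57.0 and 64.5 with busulfan plus L.J. All 3 L.J. libraries lay above all 9 others, with replicates 1 and 3 highest. The fitted log2 difference from control was 0.97 with a standard error of 0.23, and did not pass (limma, adjusted p = 0.0690).

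Ugt1a9, whose human namesake conjugates the anesthetic propofol, read 174, 147 and 172 FPKM in control and 53.5, 193 and 104 in L.J. libraries. It read 185, 189 and 151 FPKM with busulfan, and 168, 190 and 161 with both. L.J. replicates 1 and 3 were the lowest of the 12 libraries and L.J. replicate 2 the highest, so the groups overlapped. Ugt1a6a read 19.6, 16.2 and 18.6 FPKM in control, 17.4, 23.2 and 16.5 with busulfan, 26.8, 15.8 and 12.5 with L.J., and 17.3, 20.3 and 23.7 with both. Its highest and its lowest library both belonged to the L.J. group, and all groups overlapped. The ratio of Ugt1a1 to Ugt1a9, which removes any factor common to a library, was 2.45, 0.466 and 1.27 in L.J. replicates 1, 2 and 3 and ran from 0.194 to 0.417 in the other 9 libraries. All 3 L.J. libraries lay above that range, by little in replicate 2. This ratio is also subject to how shared-exon reads were divided.

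Of the UGT2 members, Ugt2a3, whose human counterpart conjugates bile acids, read 109, 88.6 and 107 FPKM in control and 62.0, 78.1 and 56.3 in L.J. libraries. With busulfan it read 112, 112 and 104 FPKM, and with busulfan plus L.J. 84.9, 96.1 and 80.4. All 3 L.J. libraries lay below the other 9. The fitted log2 difference of L.J. from control was -0.63 with a standard error of 0.15, the smallest p of the family (limma, adjusted p = 0.0611).

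Ugt2b5, the most abundant member, read 528, 429 and 596 FPKM in control and 199, 408 and 134 in L.J. libraries. Busulfan libraries read 607, 590 and 492 FPKM, and those given both read 569, 446 and 605. All 3 L.J. libraries were lowest, and replicate 2 was not far under the lowest control library. Ugt2b36 read 415, 353 and 456 FPKM in control, 475, 454 and 389 with busulfan, 249, 367 and 212 with L.J., and 422, 355 and 435 with both. L.J. replicates 1 and 3 were lowest and replicate 2 lay above the lowest control library.

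Ugt2b1, whose rat counterpart conjugates testosterone and bisphenol A, read 284, 292 and 411 FPKM in control and 89.2, 356 and 74.1 in L.J. libraries. Its levels were 367, 390 and 266 FPKM with busulfan, and 466, 287 and 361 with both. In L.J. replicate 2 it was within the control range, while replicates 1 and 3 were far under every other library. Ugt2b38 read 0.73, 2.45 and 6.88 FPKM in control, 4.10, 2.77 and 3.84 with busulfan, 0.44, 5.35 and 0.07 with L.J., and 10.7, 1.5 and 4.82 with both. All 4 groups overlapped, and reads shared with Ugt2b5 add to its uncertainty. The ratio of Ugt2b5 to Ugt2b38 ran from 52.9 to 1907 over the 12 libraries.

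Ugt2b34 stayed within the range of the other groups in the L.J. libraries. It read 140, 109 and 122 FPKM in control, 133, 140 and 129 with busulfan, 126, 149 and 114 with L.J., and 146, 139 and 168 with both, and all groups overlapped control. L.J. replicate 3 was the second lowest of the 12 libraries, above control replicate 2.

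Ugt3a1 lay farthest from control. It read 50.4, 70.1 and 85 FPKM in control, 69.8, 77.9 and 68.0 with busulfan, 8.99, 48.3 and 9.55 with L.J., and 71.2, 85.7 and 49.9 with both. All 3 L.J. libraries were below the other 9, replicate 2 by little. The control mean was 3.08 times the L.J. mean, and the fitted log2 difference was -1.97 with a standard error of 0.49 (limma, adjusted p = 0.0727). Ugt3a2, its neighbor in the UGT3A subfamily, read 136, 163 and 156 FPKM in control and 88.5, 142 and 76.3 in L.J. libraries, with a log2 difference of -0.61 (limma, adjusted p = 0.112).

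**Figure D2:**
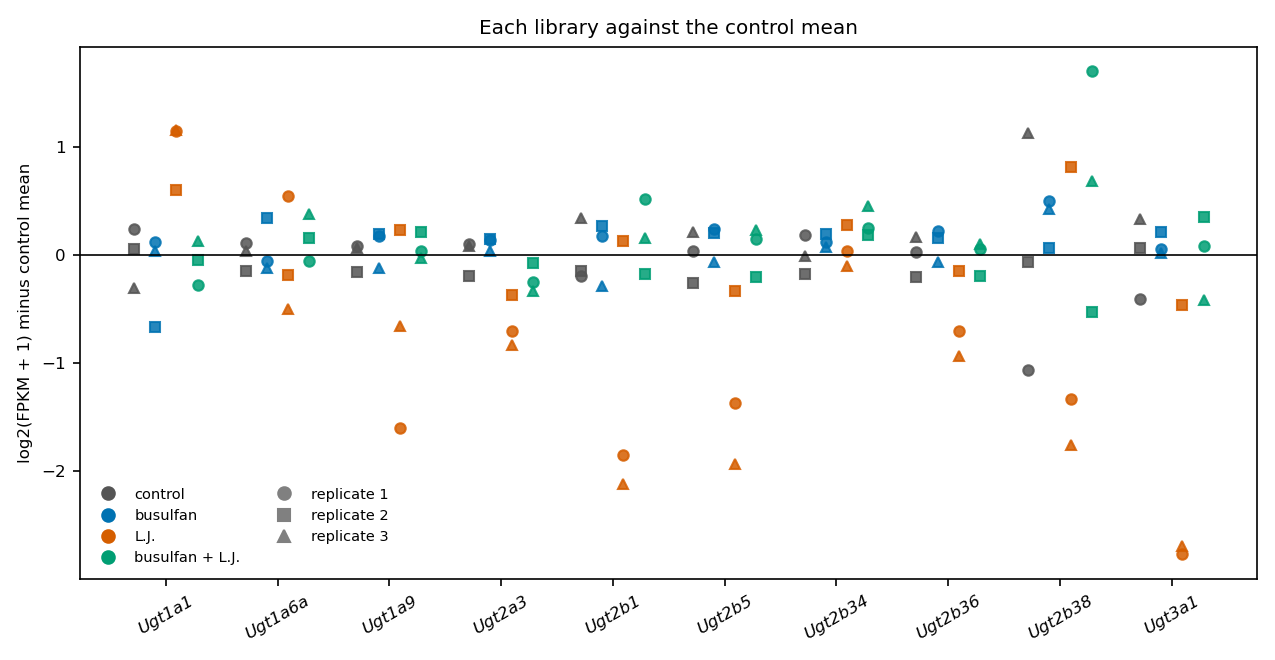
Distance of each library from the control mean on the log2(FPKM + 1) scale (vertical axis) for each gene (horizontal axis), with color for the group, marker shape for the replicate and a line at the control mean. L.J. replicates 1 and 3 reach -2.77 and -2.69 for Ugt3a1 and 1.14 and 1.16 for Ugt1a1, while L.J. replicate 2 reaches -0.46 and 0.61.

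Within the L.J. group, replicate 2 and the other replicates differed for most of the family. L.J. replicates 1 and 3 were the 2 lowest of the 12 libraries for 7 of 10 members (Ugt1a9, Ugt2a3, Ugt2b1, Ugt2b5, Ugt2b36, Ugt2b38 and Ugt3a1), beside 4.0% of all tested genes. They were the 2 highest for Ugt1a1, beside 25.3% of all tested genes. The members' median distance from the control mean on the log2(FPKM + 1) scale was -1.01, -0.01 and -0.88 in L.J. replicates 1, 2 and 3, and lay between -0.15 and 0.20 in the other 9 libraries. The summed level of the 10 genes made 0.184%, 0.280% and 0.165% of all FPKM in the L.J. replicates, and 0.238% to 0.344% in the other 9. With Mup genes taken out of the total, the share was 0.186% and 0.165% in L.J. replicates 1 and 3 and 0.353% to 0.476% in the other 10 libraries. Ugt1a1 made up 13.8% and 15.6% of the family's summed FPKM in L.J. replicates 1 and 3 and between 1.82% and 5.26% in the other 10.

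**Figure D3:**
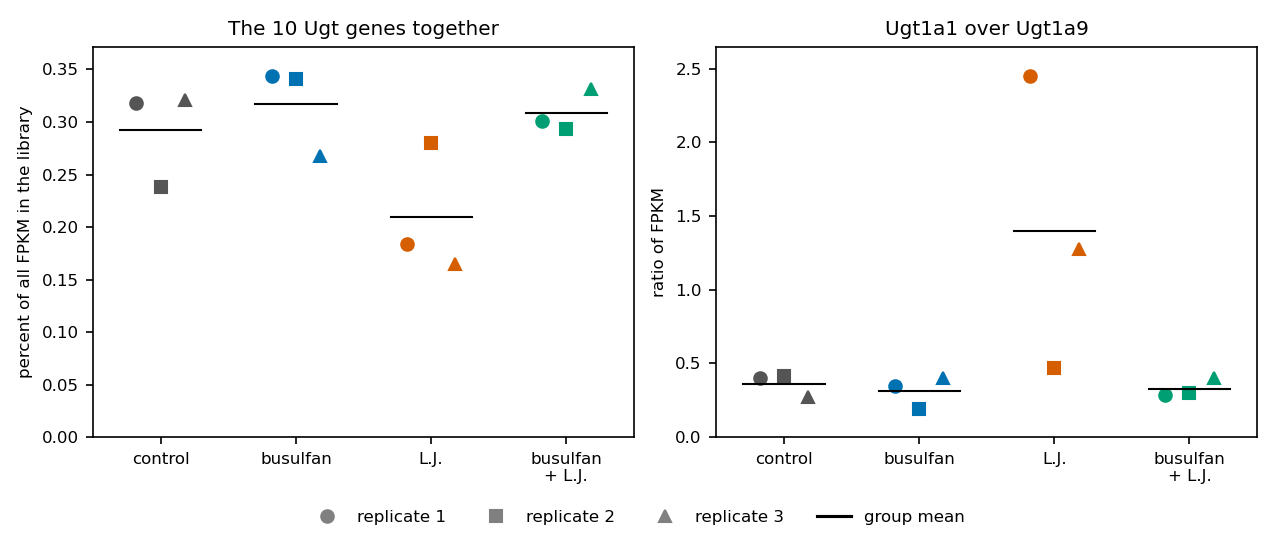
Summed FPKM of the 10 genes as a percentage of all FPKM, and the FPKM ratio of Ugt1a1 to Ugt1a9, with 1 point per library in each of the 4 groups and a bar at the group mean. L.J. replicates 1 and 3 have the lowest shares, at 0.184% and 0.165%, and the highest ratios, at 2.45 and 1.27.

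The result for L.J. depends on which of its libraries is used. Without L.J. replicate 2, 7 members passed, 6 lower and 1 higher, and so did 1800 of 10786 genes. Ugt3a1 then stood at -2.73 (limma, adjusted p = 9.5e-05), Ugt2a3 at -0.77 (adjusted p = 0.00662) and Ugt1a1 at 1.15 (adjusted p = 0.0120). That fit leaves out the library nearest to control, and its L.J. group is 2 libraries. With L.J. replicates 1 and 3 left out in its place, the L.J. group is 1 library, which is assumed to vary like the other groups, so a lack of calls there says little. In that fit 0 members and 7 genes passed, 5 members were below and 5 above control, and the values were -0.46 for Ugt3a1 (adjusted p = 0.858), -0.37 for Ugt2a3 (adjusted p = 0.762) and 0.61 for Ugt1a1 (adjusted p = 0.796). Over all 24 alternatives the log2 difference ran from -2.77 to -0.46 for Ugt3a1, from -0.84 to -0.37 for Ugt2a3 and from 0.61 to 1.31 for Ugt1a1, with the sign kept in each. Adjusted p ranged from 9.5e-05 to 0.858, from 0.000653 to 0.762 and from 0.00100 to 0.796 in the same order.

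Other genes moved with the same libraries, and their part in the result was not tested. The lists were chosen with earlier results of these data known. Of 16 male-biased liver genes, all had fitted log2(FPKM + 1) values below control and none passed, with a median log2 difference of -1.84, and their summed level was 1573, 5696 and 591 FPKM in L.J. replicates 1, 2 and 3 against 4646 to 6810 in control. In L.J. replicate 2, Cyp4a12a of that list read 574 FPKM, above its control libraries at 291, 347 and 423. Of 12 female-biased genes tested, out of 20 listed, 2 rose and 11 had fitted values above control, with sums of 537, 121 and 1781 FPKM against 14.5 to 69.9. Of these, A1bg and Cyp2b13 reached 1 FPKM in the 3 L.J. libraries alone, so the filter fixed their direction in advance. The Y-linked genes Ddx3y, Eif2s3y, Kdm5d and Uty were present in every library, Ddx3y at 12.2 to 18.3 FPKM and Eif2s3y at 28.5 to 40.1. Of 18 acute-phase genes, whose proteins the liver secretes in inflammation, 2 rose and all fitted values were above control, with sums of 59385, 17873 and 52115 FPKM against 13061 to 16486. Saa1 rose, from 79.3, 57.9 and 49.1 FPKM in control to 4454, 468 and 4030 (limma, adjusted p = 0.0172).

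Markers of other cells also differed between those libraries. All 10 markers of Kupffer cells, the liver's macrophages, had fitted values above control and none passed, and they summed to 392, 183 and 336 FPKM in L.J. replicates 1, 2 and 3 against 119 to 235 in control, 164 to 248 with busulfan and 144 to 347 with both. The 10 neutrophil and monocyte markers summed to 132, 17.8 and 79.6 FPKM in L.J. libraries, against 11.5 to 13.2 in control. The sums were 12.7 to 14.2 with busulfan and 14.1 to 18.7 with both. Of the 6 that were tested, 0 passed and 6 had fitted values above control. S100a8 and S100a9 weighed most, at 48.8 and 60.7 FPKM in L.J. replicate 1 and 25.1 and 36.2 in L.J. replicate 3. Ly6g read 10.3, 6.57 and 6.69 FPKM in L.J. libraries, against 6.81, 6.58 and 6.61 in control. S100a8 reached 1 FPKM in 4 libraries, 3 of them L.J. and none control, so the filter favored its rise. The 8 lymphoid and plasma cell markers summed to 28.6, 8.64 and 32.0 FPKM in L.J. libraries and to 2.98 to 5.73 in the other 9. Of the 2 that were tested, Jchain, the joining chain of secreted antibodies, rose, from 0.82, 0.59 and 0.57 FPKM in control to 24.9, 3.35 and 26.7 (limma, adjusted p = 0.0449). Jchain reached 1 FPKM in 4 libraries, 3 of them L.J. and none control, so the filter favored that direction. None of these 28 markers was at 0 in all L.J. libraries, and Mpo was at 0 in all busulfan libraries. Hepatocyte markers summed to 29347, 45615 and 46408 FPKM in the L.J. replicates, and L.J. replicates 2 and 3 were within the control range of 35003 to 52840. L.J. replicate 1 lay below that range, and the sum is weighted to Alb. Alb read 16134 FPKM in that library, against 38530, 24142 and 21329 in control. Of the 9 hepatocyte markers tested, 6 had fitted values above control and 3 below in L.J. against control, and 0 passed.

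The rest of the glucuronidation pathway was read from lists. Of 12 further Ugt genes, 6 were tested, 0 passed, 1 was above control and 5 below, with a median log2 difference of -0.27. Of 9 genes that supply UDP-glucuronic acid, 0 passed, 5 were above and 4 below, with a median of 0.10. Ugdh, the dehydrogenase that makes UDP-glucuronic acid, read 64.2, 42.7 and 64.2 FPKM in control and 30.6, 58.0 and 31.2 in L.J. libraries, and did not pass (log2 difference -0.54, limma, adjusted p = 0.231). Its L.J. replicates 1 and 3 were below all control libraries and replicate 2 within them. At an unadjusted p under 0.05, limma gave 2 of these 9, beside 2505 of all 10786 tested genes. The 2 were the sugar transporters Slc35d2 at -0.38 and Slc35d1 at 0.27.

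Transporters that carry bilirubin and glucuronides in and out of hepatocytes showed 0 of 7 tested past the threshold, with 3 above and 4 below control. Slco1a1, an uptake carrier, read 198, 310 and 306 FPKM in control and 33.6, 218 and 25.1 in L.J. libraries (log2 difference -2.20, limma, adjusted p = 0.0853). Slco1a4, another uptake carrier, read 9.50, 12.7 and 9.27 FPKM in control and 86.5, 13.5 and 55.1 in L.J. libraries (log2 difference 1.86, limma, adjusted p = 0.0867). As for the family, L.J. replicate 2 lay nearest to control for both. Abcc2, the canalicular pump for bilirubin glucuronide, read 64.2, 52.2 and 54.8 FPKM in control and 63.3, 35.3 and 55.7 in L.J. libraries, which overlapped.

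Upstream of Ugt1a1 in bilirubin formation, 0 of 4 genes of heme breakdown passed, and all 4 fitted values were above control, with a median of 0.25. Of 17 regulators of Ugt genes, 0 passed, 14 were above and 3 below control, with a median of 0.22 beside 0.17 for all genes. Nr1i3, which encodes CAR, read 71.6, 72.9 and 63.0 FPKM in control and 96.8, 46.0 and 73.1 in L.J. libraries, which overlapped. Hnf4a read 105, 119 and 120 FPKM in control and 155, 129 and 184 in L.J. libraries, with no overlap, and did not pass (log2 difference 0.43, limma, adjusted p = 0.124). Of 10 tested target genes of the xenobiotic sensors, out of 12 listed, 0 passed, with 7 above and 3 below control. Cyp1a2, a target of AhR, read 371, 310 and 327 FPKM in control and 164, 296 and 175 in L.J. libraries (log2 difference -0.71, limma, adjusted p = 0.12).

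The comparison of busulfan with control asks what busulfan does to the liver. No member passed in limma, 0 members had an unadjusted p under 0.05, and all 10 overlapped control, beside 5.92% of all genes that did not overlap. Of all tested genes, 0 (0%) passed and 139 had an unadjusted p under 0.05. Fitted values were above control for 9 members and below for 1, with a median log2 difference of 0.10 beside 0.04 for all genes. The smallest p belonged to Ugt2b34 at 0.13 with a standard error of 0.14, Ugt2a3 at 0.11 with 0.15, and Ugt1a1 at -0.17 with 0.23 (limma, adjusted p = 0.99995 for each). The sign for Ugt1a1 rests on busulfan replicate 2, the lowest of the 12 libraries at 36.6 FPKM, and the value without it was 0.08. In each of the lists above, 0 genes passed in this comparison.

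Busulfan plus L.J. against busulfan asks what L.J. does in the busulfan-treated liver. No member passed in limma and 0 (0%) of all tested genes did, while at an unadjusted p under 0.05 it gave 1 member, Ugt2a3, and 402 genes. Ugt2a3 was lower without overlap, beside 5.0% of genes that were lower without overlap, at 84.9, 96.1 and 80.4 FPKM against 112, 112 and 104, with a log2 difference of -0.33 and a standard error of 0.15 (limma, adjusted p = 0.9999). It was thus below in both comparisons that add L.J., and the size in neither passed. The other 9 members overlapped. Fitted values were above for 5 members and below for 5, with a median of 0.05 beside 0.00 for all genes. The next smallest p belonged to Ugt2b34 at 0.16 with a standard error of 0.14 and Ugt2b36 at -0.12 with 0.20.

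Busulfan plus L.J. against L.J. asks what busulfan does in the L.J.-treated liver. It shares the L.J. libraries with the comparison of L.J. with control, so the values of one are no support for those of the other. No member passed in limma, where 3 genes or 0.0278% of all tested did, and at an unadjusted p under 0.05 it gave 7 members, 6 higher and 1 lower, and 1471 genes. Ugt2a3, Ugt2b5 and Ugt3a1 were higher without overlap, beside 3.01% of genes, and Ugt1a1 was lower without overlap, beside 9.99%. Log2 differences were -1.03 with a standard error of 0.23 for Ugt1a1 (limma, adjusted p = 0.170), 1.98 with 0.49 for Ugt3a1 and 1.27 with 0.32 for Ugt2b5 (limma, adjusted p = 0.184 for both). The members' median was 0.66, beside -0.13 for all genes. Without L.J. replicate 2, 7 members passed, 6 higher and 1 lower, and so did 1164 of 10786 genes. Without L.J. replicates 1 and 3, which leaves 1 L.J. library, 0 members and 2 genes passed.

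Libraries given both treatments were set against control to ask what the pair does together. No member passed in limma against control and 0 (0%) of all tested genes did, while 0 members and 748 genes had an unadjusted p under 0.05. All 10 members overlapped control, beside 11.8% of genes that did not. Fitted values were above control for 7 members and below for 3, with a median of 0.07 beside 0.04 for all genes. Ugt2b34 at 0.29 with a standard error of 0.14 had the smallest p (limma, adjusted p = 0.730), followed by Ugt2a3 at -0.22 with 0.15 (adjusted p = 0.852) and Ugt2b38 at 0.62 with 0.71 (adjusted p = 0.955). A p above the threshold does not show the groups to be alike.

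**Figure D4:**
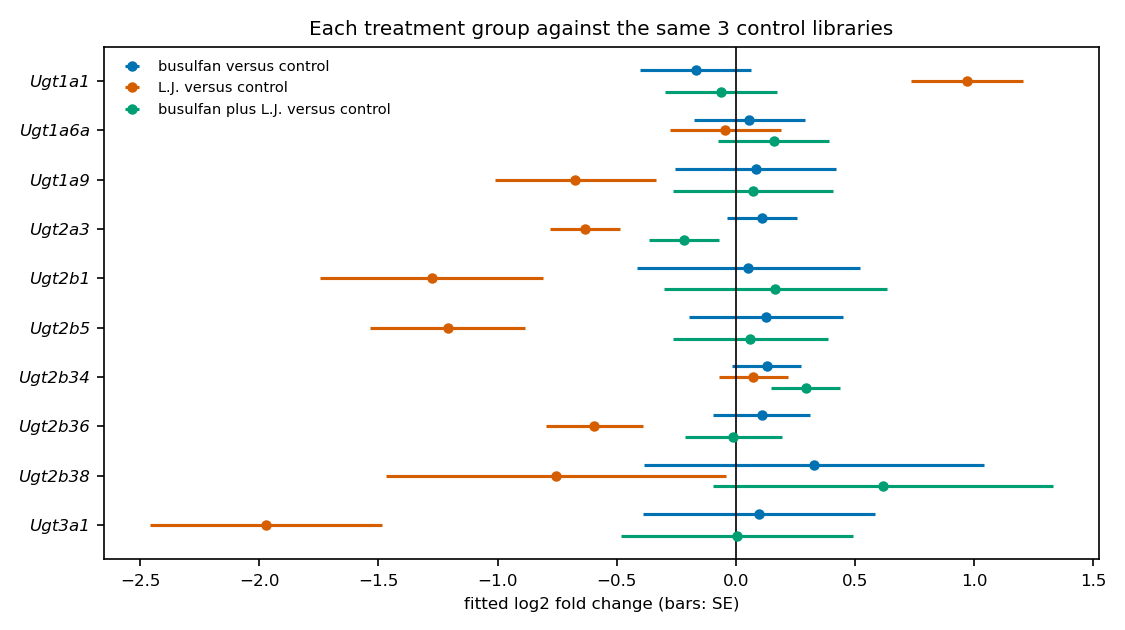
Fitted log2 fold change (horizontal axis) of the 10 genes in each treated group against the same 3 control libraries, with bars of 1 standard error, from limma on log2(FPKM + 1) over 12 libraries. For L.J. the values run from -1.97 for Ugt3a1 to 0.97 for Ugt1a1, and no gene passed in any of the 3 comparisons.

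Whether the effect of L.J. differed with and without busulfan was tested by the interaction. No member passed in limma and 0 (0%) of all tested genes did, while at an unadjusted p under 0.05 it gave 3 members and 705 genes. The differences of effects were 1.88 with a standard error of 0.69 for Ugt3a1, -0.86 with 0.33 for Ugt1a1 and 1.14 with 0.46 for Ugt2b5 on the log2 scale (limma, adjusted p = 0.709 for each). The members' median was 0.57, beside -0.17 for all genes. Without L.J. replicate 2, 299 of 10786 genes passed and with them 3 members, which were Ugt2b1, Ugt3a1 at 2.64 (limma, adjusted p = 0.00310) and Ugt2b5 at 1.58 (adjusted p = 0.0175). Without L.J. replicates 1 and 3, which leaves 1 L.J. library, 0 members and 2 genes passed, and this fit has too little of the L.J. group to be set against the other. Over 23 alternatives, adjusted p ran from 0.00310 to 0.99996 for Ugt3a1 and from 0.0139 to 0.99996 for Ugt2b5.

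The genes whose pattern was most like each member were found by Pearson's correlation of log2(FPKM + 1) over the 12 libraries, outside the family. These values are descriptions over libraries that share their groups, and they are given again over 10 libraries without L.J. replicates 1 and 3. Ugt3a1 was most like the sulfotransferase gene Sult2a8, at 0.980 and then 0.622. Ugt2b1 was most like Keg1, at 0.976 and then 0.659, and both of those partner genes are on the male-biased list. Ugt2b5 and Ugt2b36 were most like Alas2, the erythroid enzyme that begins heme synthesis, at 0.977 and 0.961, and then 0.686 and 0.750. Ugt1a9 was most like Ghitm, at 0.947 and then 0.551, and Ugt2a3 most like Nars2, at 0.931 and then 0.772. Without the libraries that stood apart the likeness was lower for these 6 members and, by less, for Ugt1a1, Ugt2b34 and Ugt2b38. Each partner was chosen for the highest value over the 12 libraries, so a lower value over 10 is partly set by that choice. Ugt1a1 was most like Fetub, a liver protease inhibitor, at 0.954 and then 0.899. Ugt2b34 was most like Ormdl3, at 0.920 and then 0.904, Ugt2b38 most like Serpina9, at 0.908 and then 0.871, and Ugt1a6a most like Zmpste24, at 0.890 and then 0.945.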

How the data were processed

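Liver RNA was sequenced in 12 libraries, 3 in each of 4 groups, placed by their titles. FPKM values of 21004 genes, given to 2 decimals, are what the authors deposited. Reads were aligned with Bowtie 0.12.2 and the build was mm10, per the submitters' processing notes. Quantifier, annotation and strand setting are not stated in any source used here, so division of reads between similar Ugt genes is unknown. FPKM is relative: a large change in abundant transcripts shifts all others in a library. The labels give no batch, and no counts are held, so the count tests planned for counts were not run.

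The 10 members were found by symbol and matched to RefSeq GRCm38.p6 by gene ID. The members and lists were chosen with earlier results of these data known. Genes reaching 1 FPKM in 3 or more libraries, 10786 in all, were fitted on log2(FPKM + 1) with limma 3.58.1 in R 4.3.3, 1 mean per group and 8 residual degrees of freedom, with a variance trend. This scale understates changes of low genes. Each of 6 comparisons was tested two-sided, adjusted by Benjamini-Hochberg over all tested genes, with a threshold of 0.05. An exact permutation test of 3 against 3 cannot go below 0.1 and was not used. The fit was tested on simulated data.

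All members are named with every value. Fitted values are given for members that passed or, where none did, for the 3 with the smallest p; of lists, up to 4 genes with the smallest p or highest mean are named. Values for other genes in the text (Hnf4a, Nr1i3, Abcc2, Ugt1a7c, the Y-linked genes) were chosen for their role, after values were seen. Cyp4a12a was named for its level in L.J. replicate 2, and A1bg and Cyp2b13 for how they met the filter, also after values were seen. For pairing, deviations of same-numbered control and busulfan libraries from their group means correlated at 0.399, 0.157 and 0.110 for numbers 1, 2 and 3. Correlations between L.J. and control were 0.384, 0.140 and -0.07. Those of busulfan plus L.J. were -0.286, -0.108 and -0.083 with control and -0.243, -0.227 and 0.044 with L.J. With busulfan they were -0.081, 0.007 and 0.018. Libraries of unlike number were not compared, so these values cannot tell whether the numbers pair libraries. The labels do not say that they do. The alternatives were 2 other pseudocounts, 2 other filters, median scaling, quantile normalization, leaving out the 21 Mup genes with rescaling, no variance trend, a replicate block, library weights, a fit on the compared groups only, and omission of each library, or of L.J. replicates 1 and 3 together.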

Additional observations from a re-analysis of the deposited data

How the results depend on the processing

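The count of members that passed was 0 in each of the 6 comparisons, and stayed 0 under every alternative in busulfan against control, busulfan plus L.J. against busulfan and busulfan plus L.J. against control. In L.J. against control it became 1 with median scaling (Ugt2a3 at -0.84, limma, adjusted p = 0.0487), where 112 of 10786 genes passed. It was 1 without Mup genes and rescaled (Ugt2a3 at -0.75, limma, adjusted p = 0.0469), where 114 of 10727 passed. With library weights it was 8, where 4250 of 10786 genes passed. Library weights also gave 7 in busulfan plus L.J. against L.J. and 5 in the interaction, where 2600 and 862 of 10786 genes passed. They set L.J. replicate 2 at 0.250 and L.J. replicate 3 at 2.63. Leaving out 1 library at a time, the count ran from 0 to 7 in L.J. against control, from 0 to 7 in busulfan plus L.J. against L.J. and from 0 to 3 in the interaction, and was above 0 without L.J. replicate 2 alone. With the replicate number as a block, 0 members passed in each comparison and no call of a member changed.

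Median scaling moved the median log2 difference of all genes in L.J. against control from 0.17 to 0.00 and that of the members from -0.65 to -0.84, and 9 members were then below control in place of 8. Of 429 alternative values for single members, 408 kept their side of the threshold and their sign, 19 came past the threshold and 2 reversed. These were Ugt2b38 in busulfan plus L.J. against control, at -0.82 with library weights, and Ugt1a1 in busulfan against control, which was 0.081 without busulfan replicate 2 and ran from -0.32 when other single libraries were left out. The cause was not tested. The number of genes called in L.J. against control was 27, and 112 with median scaling, 63 with quantile normalization, 114 without Mup genes, 11 without a filter, 4250 with library weights, 0 in the compared groups alone and from 1 to 1800 leaving out 1 library.

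Depth is unknown, so for Ugt2b38, under 1 FPKM in 3 libraries, counting error cannot be separated from the spread.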
